A study of Mus musculus with 9 samples.

Results

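The caveolin and clathrin uptake machinery was followed here through 10 genes, Cav1, Cav2, Cltc, Clta, Cltb, Ap2a1, Ap2b1, Ap2m1, Eps15 and Dnm2. They were chosen by gene symbol and not by a rule on their values, though with earlier results of these data known. All 10 were found among the 21959 genes of the deposited table, and 9 passed the filter on low counts that left 11568 genes for testing; Cav1 did not pass. The samples were total RNA of DC2.4, a line of mouse dendritic cells, sequenced as 9 libraries. The groups were OMVSSDC, ZJDC and PBSDC, with 3 libraries each, and all were DC2.4 cells with no genetic change named. Per the study's description, such cells received engineered vesicles called EMV@SS. Neither the meaning of OMVSS and ZJ nor the group that received those vesicles, their dose or the time is stated in the labels. PBS is the usual abbreviation of phosphate-buffered saline, and PBSDC was taken as the control on that reading. DC2.4 is an established, cultured line and models dendritic cells only as such. Since nothing in the labels makes the replicates separate cultures, the p-values measure the spread between these libraries, which may be technical.

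Cells take up receptors, particles and vesicles through several kinds of membrane pit. Clathrin-coated pits are built from heavy chains and light chains of clathrin, the AP-2 adaptor binds cargo and the membrane lipid PIP2 beneath the coat, and dynamin cuts the neck of the pit. Caveolae are flask-shaped pits formed by caveolins together with cavin proteins and are abundant in endothelium, fat and muscle. Dendritic cells use endocytosis to sample antigen, and immature cells do so more actively than mature ones.

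The libraries held 12784931 to 18388959 counts. Levels are in CPM, which are counts per library total after scaling, and a gene with 0 counts may still have had up to 3, or 0.163 to 0.235 CPM depending on the library. Intervals and limits of this kind cover counting error only. OMVSSDC replicate 3 stood apart from its group: the chi-square per degree of freedom over genes was 62.4 and 65.1 between it and the other OMVSSDC libraries, against 1.89 between those and 2.57 to 9.01 among the ZJDC libraries. Results that rest on this library are therefore given without it, and within the 7 libraries left when OMVSSDC replicates 1 and 2 are set aside. Of 12 dendritic and myeloid markers, 10 reached 1 CPM, and their sum was 3630 to 4330 CPM in OMVSSDC, 3980 to 4120 in ZJDC and 3900 to 4000 in PBSDC. Single markers differed under this sum: Csf1r averaged 564 CPM in OMVSSDC, 554 in ZJDC and 1130 in PBSDC, and Cd86 averaged 314 in OMVSSDC, 303 in ZJDC and 139 in PBSDC. The dendritic markers Flt3 and H2-Aa were near 0 in all groups, while Itgax, which encodes CD11c, averaged 4.06 CPM in OMVSSDC, 4.30 in ZJDC and 2.04 in PBSDC. In bulk RNA of this kind, fewer cells of a type and less RNA per cell cannot be told apart.

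Against PBSDC, the genes for both clathrin light chains fell in OMVSSDC and in ZJDC, while the heavy chain gene Cltc was at log2 fold changes of -0.05 in OMVSSDC and 0.05 in ZJDC and passed in neither. Cav2 and the dynamin gene Dnm2 rose in both groups, and Ap2m1, the cargo-binding AP-2 subunit, was slightly lower in both. In OMVSSDC 2 of the 9 tested genes were higher and 3 lower at an adjusted p under 0.05 (edgeR quasi-likelihood test), which is 55.6% of them, while 63.6% of all tested genes passed in that comparison, 33.4% higher and 30.2% lower. In ZJDC the counts were again 2 higher and 3 lower, or 55.6%, against 54.7% of all tested genes, 27.6% higher and 27.1% lower. The groups did not overlap for 5 of the 9 genes in OMVSSDC against PBSDC (65.7% of all tested genes) and for 8 of the 9 in ZJDC against PBSDC (72.2%). The share of these genes that differed is thus close to that of the transcriptome. The 2 genes called higher and the 3 called lower were the same in both comparisons, which share the PBSDC libraries. The median log2 fold change of the 9 genes was -0.053 in OMVSSDC, with 0.049 over all tested genes, and 0.047 in ZJDC, with 0.014 over all tested genes. Scaling by library size alone moved the median of all genes by 0.128 in OMVSSDC against PBSDC. The plot of fold changes shows each gene with its standard error.

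**Figure D1:**
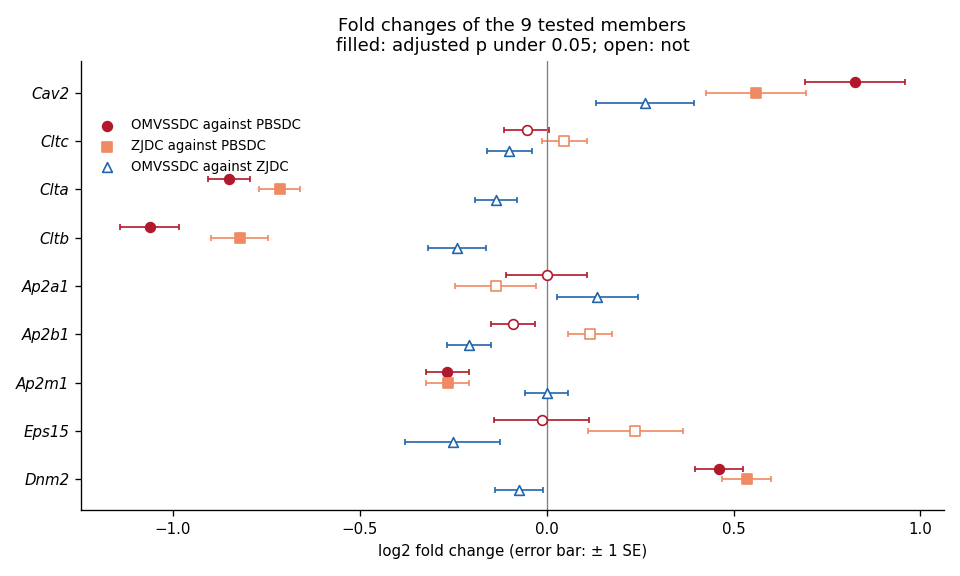
Log2 fold changes (horizontal axis) of the 9 tested genes, 1 row each, for OMVSSDC against PBSDC (circles), ZJDC against PBSDC (squares) and OMVSSDC against ZJDC (triangles), with bars of 1 standard error; filled symbols have an adjusted p under 0.05. Clta and Cltb lie left of 0 and Cav2 and Dnm2 right of 0 in both comparisons with PBSDC, and no triangle is filled.

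Cav2 encodes caveolin-2, which builds caveolae together with caveolin-1 and needs it to leave the Golgi in most cells. Its level was 52.7, 58.6 and 40.7 CPM in OMVSSDC, 38.6, 42.4 and 45.8 CPM in ZJDC and 31.5, 27.0 and 27.4 CPM in PBSDC. Every OMVSSDC and ZJDC library lay above every PBSDC library, while the OMVSSDC and ZJDC ranges overlapped. Cav2 rose by a log2 fold change of 0.82 in OMVSSDC (SE 0.134, adjusted p = 0.000379, edgeR) and of 0.56 in ZJDC (SE 0.134, adjusted p = 0.00519, edgeR). Replicate 3 was the lowest of the OMVSSDC libraries, and with it as the lone OMVSSDC library the log2 fold change was 0.50 (adjusted p = 0.000390, edgeR).

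Cav1 encodes caveolin-1, the principal coat protein of caveolae, and lies next to Cav2: the deposited table places Cav2 at chromosome 6, 17281184 to 17289114, and Cav1 at 17306334 to 17341451 on the same strand, 17219 bases apart, in a genome build that the sources used here do not give. Its neighbour's rise was not shared. Cav1 had 0, 3 and 1 counts in OMVSSDC, 7, 3 and 6 in ZJDC and 8, 10 and 7 in PBSDC. In counts, the highest OMVSSDC library equalled the lowest ZJDC library, and every OMVSSDC and ZJDC library was at or below the lowest PBSDC library. In CPM the groups did not overlap, with at most 0.1675 in OMVSSDC, 0.2347 to 0.3945 in ZJDC and 0.4717 to 0.6855 in PBSDC. At this level the gaps amount to a few counts. Summed over 3 libraries, this was 4 counts or 0.0898 CPM in OMVSSDC (exact 95% Poisson interval 0.0245 to 0.230), 16 counts or 0.326 CPM in ZJDC (0.186 to 0.529) and 25 counts or 0.528 CPM in PBSDC (0.342 to 0.780). The OMVSSDC level was 0.170 of the PBSDC level (exact 95% interval 0.0430 to 0.492), and the ZJDC level was 0.616 of it (0.308 to 1.20). These intervals cover counting error only. Cav1 was tested only without a filter on low counts, where its log2 fold change was -2.60 in OMVSSDC (SE 0.722, adjusted p = 0.00848, edgeR) and -0.77 in ZJDC (SE 0.574, adjusted p = 0.345, edgeR). Within a library, the log2 ratio of Cav1 to Cav2 counts (0.5 added to each) averaged -9.13 in OMVSSDC, -6.94 in ZJDC and -5.62 in PBSDC, with no overlap between groups (exact permutation p = 0.1 for each pair, the smallest possible, and 0.15 adjusted over 9 comparisons). The size of this ratio depends on the number added: the difference from PBSDC was -3.51 in OMVSSDC with 0.5 added and -2.57 with 2 added.

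The summed markers of some caveola-rich cell types were also lower in OMVSSDC and ZJDC, though single markers differed in direction. The 6 endothelial markers, of which 3 reached 1 CPM, summed to 7.57 to 10.8 CPM in OMVSSDC, 8.76 to 9.23 in ZJDC and 20.7 to 22.3 in PBSDC. The 6 muscle and heart markers, of which 4 reached 1 CPM, summed to 2.45 to 13.7 CPM in OMVSSDC, 13.6 to 19.7 in ZJDC and 26.2 to 30.9 in PBSDC. No marker of either list was at 0 in all 9 libraries, and Pecam1, an adhesion molecule of endothelium that myeloid cells also carry, was at 2.38 to 5.88 CPM in OMVSSDC, 3.6 to 4.62 in ZJDC and 14.9 to 15.5 in PBSDC. The lower endothelial sum came from Pecam1 and Cdh5. Cdh5 averaged 1.81 CPM in OMVSSDC, 2.28 in ZJDC and 4.78 in PBSDC, whereas Vwf was at 2.57 to 3.35 CPM in OMVSSDC, 1.86 to 2.66 in ZJDC and 0.584 to 1.47 in PBSDC. Most of the difference in the muscle sum between ZJDC and PBSDC came from Tnnt2, a troponin gene, which averaged 3.77 CPM in OMVSSDC, 6.37 in ZJDC and 19.4 in PBSDC. Myl2, Actc1 and Ckm did not have a lower mean in ZJDC than in PBSDC. The 4 adipocyte markers, a sum made up almost wholly of Fabp4, came to 3.91 to 5.48 CPM in OMVSSDC, 4.28 to 5.79 in ZJDC and 2.65 to 3.43 in PBSDC. The 6 fibroblast markers overlapped between groups, with 5.36 to 22.8 CPM in OMVSSDC, 9.18 to 15.7 in ZJDC and 7.33 to 12.2 in PBSDC. The OMVSSDC range reached into the other groups only through replicate 3, which also set the upper end of its muscle range. In OMVSSDC replicates 1, 2 and 3, Col3a1 had 0, 0 and 99 counts and Myl2 had 0, 2 and 31. The fibroblast marker Pdgfra instead averaged 6.16 CPM in OMVSSDC, 5.01 in ZJDC and 2.65 in PBSDC. The 5 epithelial markers summed to at most 0.511 CPM in any library. The part of these markers in the Cav1 result was not tested.

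The other caveola genes were mostly near 0 in this line. Cav3, the muscle caveolin, had 0 counts in all 9 libraries, which allows up to 0.0213 CPM over 140960378 counts. Cavin1, the cavin on which caveola formation depends, had 1 to 7 counts per library and 30 in all. Cavin2, Cavin3 and Cavin4 had 6, 1 and 1 counts in all. Ehd2, an ATPase that holds caveolae at the surface, and Pacsin2, which bends the membrane at caveolae and elsewhere, passed the filter. Ehd2 fell in OMVSSDC, to 2.44 ± 0.449 CPM, against 5.58 ± 1.05 CPM in PBSDC (SD, n = 3 each; log2 fold change -1.17, SE 0.204, adjusted p = 0.000595, edgeR); in ZJDC it was at 3.95 ± 0.356 CPM (-0.49, adjusted p = 0.0527, edgeR). The Ehd2 call in ZJDC was gained without OMVSSDC replicate 3 (-0.48, adjusted p = 0.0197, edgeR). Pacsin2 fell to 141 ± 1.47 CPM in ZJDC, against 183 ± 4.01 CPM in PBSDC (-0.38, adjusted p = 0.000240, edgeR). It was also called lower in OMVSSDC, where it averaged 140 CPM. Ehd2 and its values, and the OMVSSDC value of Pacsin2, were chosen for naming after they were seen.

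**Figure D2:**
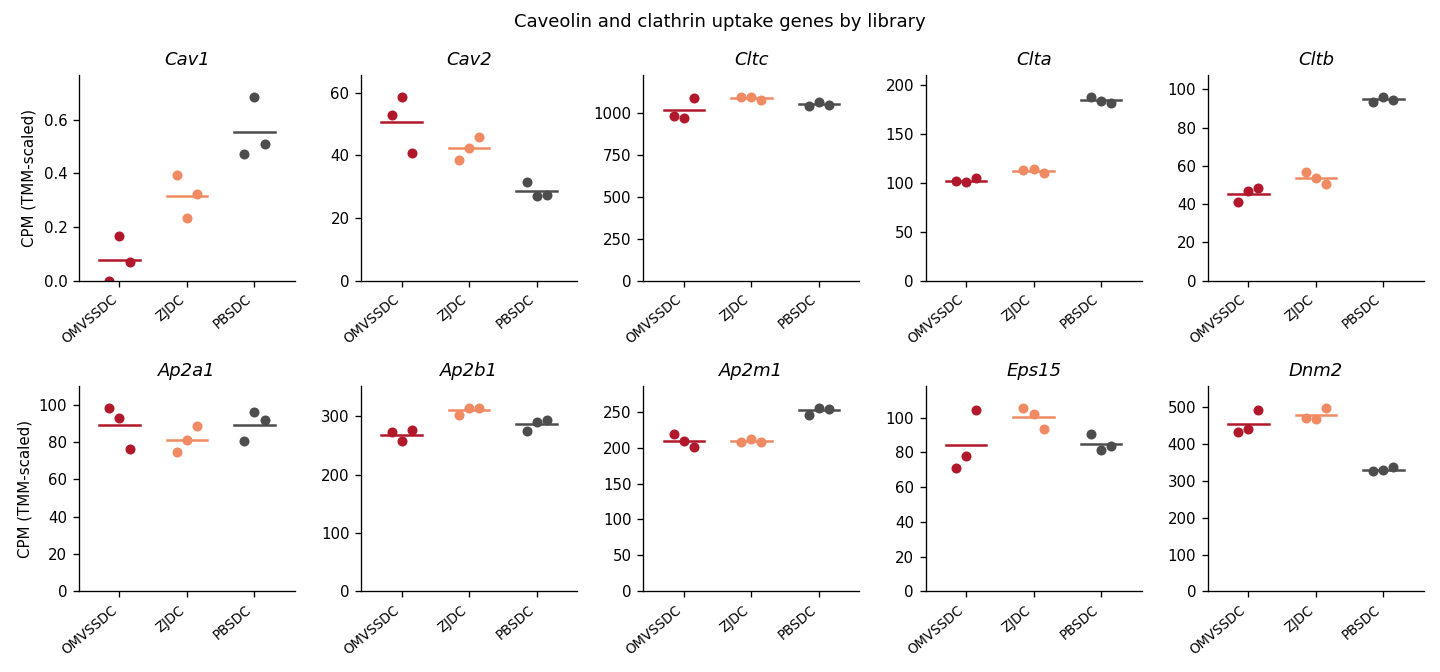
TMM-scaled CPM (vertical axes, each from 0) of the 10 genes in every library, by group (OMVSSDC, ZJDC, PBSDC); points are libraries and bars are group means of 3. Clta and Cltb have all OMVSSDC and ZJDC points below PBSDC, Cav2 and Dnm2 have them above, and Cav1 stays under 1 CPM throughout.

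The upstream sequences of the caveolin pair are shown because the neighbouring genes differed in direction. They are the 250 bases before the RefSeq start on GRCm38.p6, read 5′ to 3′ on the gene's strand, at chr6:17280935-17281184 (plus strand) for Cav2 and chr6:17306085-17306334 (plus strand) for Cav1. Where RefSeq lists several starts, as for Cav1 and Clta, the outermost was taken. Capitals mark matches on either strand to the GC box GGGCGG, the box named CCAAT, the AP-1 site TGANTCA, the cAMP response element TGACGTCA or the E-box, which reads CACGTG.
Cav2: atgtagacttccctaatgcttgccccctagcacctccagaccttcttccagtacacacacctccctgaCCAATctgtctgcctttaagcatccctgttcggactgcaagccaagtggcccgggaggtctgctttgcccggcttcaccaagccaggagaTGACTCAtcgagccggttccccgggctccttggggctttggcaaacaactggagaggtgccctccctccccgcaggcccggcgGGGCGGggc
Cav1: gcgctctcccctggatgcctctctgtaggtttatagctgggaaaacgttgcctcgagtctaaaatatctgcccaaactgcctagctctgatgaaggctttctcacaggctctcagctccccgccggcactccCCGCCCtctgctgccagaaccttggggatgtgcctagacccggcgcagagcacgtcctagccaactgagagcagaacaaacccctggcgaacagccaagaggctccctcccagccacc
The Cav2 window held 1 match each to the GC box, the CCAAT box and the AP-1 site, and the Cav1 window held 1 match to the GC box. A match is a description of the letters and not evidence of a bound factor.

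Clathrin triskelia consist of heavy chains, encoded by Cltc, with light chains from Clta (light chain a) or Cltb (light chain b), which regulate assembly and bind huntingtin-interacting proteins. Clta was at 101, 100 and 105 CPM in OMVSSDC, 113, 114 and 110 CPM in ZJDC and 188, 183 and 182 CPM in PBSDC. Cltb was at 41.0, 46.6 and 48.4 CPM in OMVSSDC, 56.8, 53.4 and 50.5 CPM in ZJDC and 93.6, 96.0 and 94.5 CPM in PBSDC. For both genes all 6 OMVSSDC and ZJDC libraries lay far below the PBSDC libraries, and OMVSSDC lay below ZJDC without overlap. Clta fell by 0.85 on the log2 scale in OMVSSDC (SE 0.0553, adjusted p = 6.97e-07, edgeR) and by 0.71 in ZJDC (SE 0.0551, adjusted p = 3.36e-06, edgeR). Cltb fell by 1.06 in OMVSSDC (SE 0.0782, adjusted p = 1.53e-06, edgeR) and by 0.82 in ZJDC (SE 0.0775, adjusted p = 1.29e-05, edgeR). Leaving out each library in turn kept Clta between -0.87 and -0.84 in OMVSSDC, and no setting tried lost a call of either gene against PBSDC.

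Cltc was the most abundant of the 10 genes per length in every group. It was at 983, 973 and 1094 CPM in OMVSSDC, 1095, 1098 and 1077 CPM in ZJDC and 1045, 1069 and 1050 CPM in PBSDC. OMVSSDC replicates 1 and 2 lay below all PBSDC libraries and replicate 3 above them, whereas the ZJDC libraries lay narrowly above PBSDC. The log2 fold change was -0.05 in OMVSSDC (SE 0.0600, adjusted p = 0.459, edgeR) and 0.05 in ZJDC (adjusted p = 0.526, edgeR). The OMVSSDC value depends on replicate 3: without it Cltc was lower by a log2 fold change of -0.11 (adjusted p = 0.00922, edgeR), and with it alone the value was 0.05. It depends on scaling as well: with library size alone the value was 0.073 (adjusted p = 0.207, edgeR). As a share of library counts, Cltc was at 0.1045%, 0.1038% and 0.11% in OMVSSDC, against 0.0997%, 0.1023% and 0.1007% in PBSDC.

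Set per length, the fall of the light chains against a level heavy chain shows as a change in balance. In FPKM (counts divided by gene length and library total), Clta and Cltb averaged 59.3 and 9.72 in OMVSSDC, 62.4 and 11.0 in ZJDC and 97.9 and 18.6 in PBSDC, while Cltc averaged 125 in OMVSSDC, 128 in ZJDC and 119 in PBSDC. The summed light chain FPKM over the heavy chain FPKM was 0.560, 0.570 and 0.529 in OMVSSDC, 0.579, 0.575 and 0.562 in ZJDC and 1.0, 0.966 and 0.975 in PBSDC. The OMVSSDC and ZJDC libraries lay together, far below PBSDC. The log2 ratio differed by -0.83 between OMVSSDC and PBSDC and by -0.78 between ZJDC and PBSDC, each with p = 0.1 in a two-sided exact permutation test of 3 against 3 libraries, which is the smallest p that the 20 splits allow. This ratio was added after the values were seen. It needs no scaling between libraries, and it compares messenger levels and not protein. Its absolute size rests on the deposited gene lengths of 1800 bases for Clta, 4868 for Cltb and 8499 for Cltc.

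Within the light chains, Clta made up 85.9% of the summed FPKM in OMVSSDC, 85.0% in ZJDC and 84.0% in PBSDC. The absolute size of these shares rests on the same gene lengths. The log2 ratio of Clta to Cltb counts averaged 1.18 ± 0.114 in OMVSSDC, 1.07 ± 0.062 in ZJDC and 0.96 ± 0.039 in PBSDC (SD, n = 3 each). All OMVSSDC ratios exceeded all PBSDC ratios, by 0.22 on average (exact permutation p = 0.1, 0.15 adjusted over 9 ratio comparisons). The ZJDC ratios overlapped those of PBSDC, with a difference of 0.11 (exact permutation p = 0.2, adjusted 0.225). The exact permutation test of 3 libraries against 3 cannot go below p = 0.1.

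**Figure D3:**
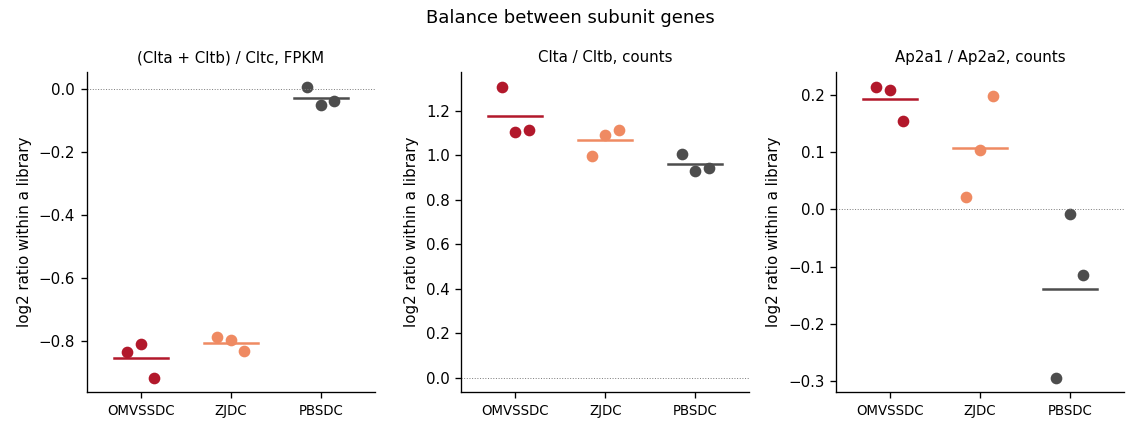
Log2 ratios within each library (vertical axes) by group: the FPKM of both light chain genes over that of the heavy chain gene (left), Clta over Cltb counts (middle) and Ap2a1 over Ap2a2 counts (right); points are libraries and bars are group means of 3. The light to heavy chain ratio is near 0 in PBSDC and between -0.917 and -0.788 in the OMVSSDC and ZJDC libraries.

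The upstream windows of the light chain genes are shown because these genes fell together. They lie at chr4:44004193-44004442 (plus strand) for Clta and chr13:54611374-54611623 (minus strand) for Cltb on GRCm38.p6, with capitals as above.
Clta: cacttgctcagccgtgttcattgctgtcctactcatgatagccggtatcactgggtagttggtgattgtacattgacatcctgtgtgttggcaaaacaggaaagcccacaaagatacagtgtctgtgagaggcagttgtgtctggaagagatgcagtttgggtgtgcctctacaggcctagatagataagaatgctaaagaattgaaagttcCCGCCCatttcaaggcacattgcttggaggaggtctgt
Cltb: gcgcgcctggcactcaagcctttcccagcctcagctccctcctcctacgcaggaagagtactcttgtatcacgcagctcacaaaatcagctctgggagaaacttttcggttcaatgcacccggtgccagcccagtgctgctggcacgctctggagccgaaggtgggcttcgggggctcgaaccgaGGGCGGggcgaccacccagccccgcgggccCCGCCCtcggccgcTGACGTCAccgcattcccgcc
Clta held 1 match to the GC box, in reverse orientation, and Cltb held 2 together with 1 match to the cAMP response element. Of the motifs searched, the GC box is the only one that both light chain windows held.

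AP-2 is a complex of an alpha subunit (Ap2a1 or Ap2a2), a beta subunit (Ap2b1), the mu subunit that reads tyrosine signals on cargo (Ap2m1) and the small sigma subunit (Ap2s1). Ap2m1 was at 219, 209 and 201 CPM in OMVSSDC, 208, 213 and 208 CPM in ZJDC and 245, 256 and 254 CPM in PBSDC. All 6 OMVSSDC and ZJDC libraries lay below PBSDC, and the OMVSSDC and ZJDC ranges overlapped. Ap2m1 fell by 0.27 on the log2 scale in OMVSSDC (SE 0.0580, adjusted p = 0.00249, edgeR) and by 0.27 in ZJDC (adjusted p = 0.00308, edgeR). With scaling by library size alone the OMVSSDC call was lost (-0.14, adjusted p = 0.0827, edgeR).

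Ap2b1, the beta subunit that binds clathrin, was at 272, 258 and 276 CPM in OMVSSDC, 302, 315 and 314 CPM in ZJDC and 275, 289 and 293 CPM in PBSDC. The ZJDC libraries were the highest, without overlap, and OMVSSDC overlapped PBSDC. The log2 fold change was -0.09 in OMVSSDC (adjusted p = 0.197, edgeR) and 0.12 in ZJDC (adjusted p = 0.114, edgeR), and neither passed. Without OMVSSDC replicate 3 the values were -0.11 (adjusted p = 0.0283, edgeR) and 0.12 (adjusted p = 0.0111, edgeR), both then past the threshold.

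Ap2a1, an alpha subunit that binds accessory proteins, was at 98.4, 93.0 and 76.4 CPM in OMVSSDC, 74.4, 80.8 and 88.4 CPM in ZJDC and 80.4, 95.8 and 91.7 CPM in PBSDC. All 3 groups overlapped. The log2 fold change was -0.0004 in OMVSSDC (SE 0.109, adjusted p = 0.998, edgeR) and -0.14 in ZJDC (adjusted p = 0.311, edgeR). With OMVSSDC replicate 3 as the lone library of its group, Ap2a1 was lower than in PBSDC (-0.23, adjusted p = 0.0483, edgeR).

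The other alpha subunit gene, Ap2a2, fell in both groups, by 0.33 in OMVSSDC (adjusted p = 0.00436, edgeR) and by 0.38 in ZJDC (adjusted p = 0.00232, edgeR). The OMVSSDC call was lost with scaling by library size alone (-0.20, adjusted p = 0.0814, edgeR). Per length, Ap2a1 made up 60.1% of the summed alpha FPKM in OMVSSDC, 58.7% in ZJDC and 54.5% in PBSDC. The log2 ratio of Ap2a1 to Ap2a2 counts was 0.214, 0.209 and 0.155 in OMVSSDC, 0.021, 0.103 and 0.198 in ZJDC and -0.294, -0.008 and -0.114 in PBSDC. Every OMVSSDC and ZJDC ratio was positive and every PBSDC ratio negative. The difference from PBSDC was 0.33 in OMVSSDC and 0.25 in ZJDC (exact permutation p = 0.1 each, the smallest possible, and 0.15 adjusted over 9 comparisons). Ap2a1 overlaps Fuz on the opposite strand, which had 65 to 125 counts beside at least 1033 for Ap2a1, and whether counting used strand is not given.

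Ap2s1, the sigma subunit, separated the OMVSSDC libraries: it was at 74.1, 73.5 and 41.7 CPM in OMVSSDC, 47.0, 45.0 and 48.3 CPM in ZJDC and 61.4, 69.2 and 64.9 CPM in PBSDC. OMVSSDC replicates 1 and 2 lay above PBSDC and replicate 3 below ZJDC. In ZJDC Ap2s1 fell by 0.48 (adjusted p = 0.0449, edgeR), a call lost in the fit without a filter on low counts (adjusted p = 0.0646, edgeR). Leaving out each library in turn gave adjusted p of up to 0.120 for that call, which was lost in 6 of the 9 cases. In OMVSSDC the log2 fold change was -0.05 (adjusted p = 0.836, edgeR), against 0.18 without replicate 3 (adjusted p = 0.0132, edgeR) and -0.65 with replicate 3 alone (adjusted p = 9.90e-07, edgeR). Ap2a2 and Ap2s1 were chosen for naming after their values were seen. Per length, Ap2a1, Ap2b1 and Ap2m1 had 21.8, 32.0 and 53.1 FPKM in OMVSSDC, 18.9, 35.4 and 50.8 FPKM in ZJDC and 19.9, 31.2 and 58.4 FPKM in PBSDC.

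Eps15 encodes an early scaffold protein of the coated pit that binds AP-2 and ubiquitinated cargo. Its level was 70.8, 78.1 and 104 CPM in OMVSSDC, 106, 102 and 93.6 CPM in ZJDC and 90.5, 81.2 and 83.7 CPM in PBSDC. OMVSSDC replicates 1 and 2 were the lowest of the 9 libraries and replicate 3 lay within the ZJDC range, which was above PBSDC. The log2 fold change was -0.01 in OMVSSDC (SE 0.127, adjusted p = 0.930, edgeR) and 0.24 in ZJDC (adjusted p = 0.137, edgeR). Without OMVSSDC replicate 3 Eps15 was lower in OMVSSDC (-0.19, adjusted p = 0.00930, edgeR) and higher in ZJDC (0.24, adjusted p = 0.000571, edgeR). With replicate 3 alone it was higher in OMVSSDC (0.28, adjusted p = 0.00312, edgeR), so that the direction turns on that library.

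Dnm2 encodes dynamin-2, the GTPase that cuts clathrin-coated pits and caveolae from the membrane in most tissues. It was at 434, 441 and 493 CPM in OMVSSDC, 471, 469 and 499 CPM in ZJDC and 327, 330 and 337 CPM in PBSDC. All OMVSSDC and ZJDC libraries exceeded all PBSDC libraries, and OMVSSDC and ZJDC overlapped. Dnm2 rose by a log2 fold change of 0.46 in OMVSSDC (SE 0.0654, adjusted p = 0.000148, edgeR) and of 0.54 in ZJDC (SE 0.0654, adjusted p = 7.32e-05, edgeR). Per length it averaged 89.2 ± 3.30 FPKM in OMVSSDC, 90.1 ± 4.20 FPKM in ZJDC and 59.4 ± 1.06 FPKM in PBSDC (SD, n = 3 each). It overlaps Tmed1 on the opposite strand, which had 34 to 126 counts beside at least 4613 for Dnm2.

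The window before the Dnm2 start, at chr9:21424658-21424907 (plus strand), is shown as that of the called gene that rose with Cav2.
Dnm2: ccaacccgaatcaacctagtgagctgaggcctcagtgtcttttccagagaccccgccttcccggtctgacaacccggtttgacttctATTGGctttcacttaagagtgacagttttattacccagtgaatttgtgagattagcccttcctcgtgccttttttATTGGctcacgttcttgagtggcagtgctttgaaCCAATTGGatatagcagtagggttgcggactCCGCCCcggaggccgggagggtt
It held 4 matches to the CCAAT box, of which 2 on opposite strands overlap, and 1 to the GC box. Over all 10 genes, 6 windows held the GC box, which 32.7% of 32851 RefSeq windows of this length hold, and 4 held the CCAAT box, with 33.8% of all windows. The cAMP response element was in 2, those of Cltb and Ap2b1, with 1.55% of all windows. The AP-1 site was in the Cav2 window alone, with 6.75% of all windows, and the E-box in that of Ap2m1 alone, with 6.02%. None of the 10 held the core of the interferon-stimulated response element (GAAA, any 2 bases, then GAAA again), with 2.98% of all windows, or the NF-kB consensus, with 7.25%. No match says only that these letters are not in this window.

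Between OMVSSDC and ZJDC none of the 9 genes passed (edgeR), where 1.95% of all tested genes did, 0.856% or 99 higher and 1.1% or 127 lower (115 higher and 91 lower with scaling by library size alone). At an unadjusted p under 0.05 the edgeR test gave 3 of the 9 genes, Clta, Cltb and Ap2b1, where it gave 31.8% of all tested genes. DESeq2, run without the filter on low counts, called 2 lower, Cltb and Ap2b1, and called 9.29% of 17043 genes with any count, 4.9% lower. Their log2 fold changes were -0.14 for Clta (adjusted p = 0.130, edgeR), -0.24 for Cltb (adjusted p = 0.0914, edgeR) and -0.21 for Ap2b1 (adjusted p = 0.0752, edgeR). These 3 genes did not overlap between the groups, while groups did not overlap for 24% of all tested genes. The log2 fold change was 0.26 for Cav2 (SE 0.131, adjusted p = 0.192, edgeR) and -0.25 for Eps15 (adjusted p = 0.197, edgeR). It was -0.10 for Cltc, -0.07 for Dnm2, 0.14 for Ap2a1 and -0.0002 for Ap2m1, with adjusted p of 0.261 to 0.999 (edgeR). The median over the 9 genes was -0.10, with 0.012 over all tested genes. Cav1 in OMVSSDC was at 0.276 of the ZJDC level (exact 95% interval 0.0671 to 0.855, counting error only). The Clta to Cltb and Ap2a1 to Ap2a2 ratios overlapped between OMVSSDC and ZJDC, with log2 differences of 0.11 (exact permutation p = 0.3) and 0.09 (exact permutation p = 0.2).

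The comparison rests on OMVSSDC replicate 3. Without it, 2 of the genes were higher and 6 lower in OMVSSDC than in ZJDC, and 55.6% of all genes tested passed, 27.6% higher and 28% lower (edgeR). The higher genes were then Cav2 (0.40, adjusted p = 0.000141, edgeR) and Ap2a1 (0.23, adjusted p = 0.00970, edgeR). The lower ones were Eps15 (-0.43), Cltb (-0.29), Ap2b1 (-0.23), Cltc (-0.16), Clta (-0.16) and Dnm2 (-0.14), with adjusted p of 0.0101 or less (edgeR). With replicate 3 as the lone OMVSSDC library, the log2 fold change of Cav2 was -0.06.

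The wider uptake machinery was described through 71 further genes, of which 59 were tested. In OMVSSDC against PBSDC 19 rose and 19 fell, which is 64.4% of those tested against 63.6% of all tested genes, with a median log2 fold change of 0.032 beside 0.049 over all. With scaling by library size alone 25 of them were higher and 12 lower, while 40.4% of all tested genes were higher and 24.4% lower. Without OMVSSDC replicate 3, 29 were lower, with 36% of all genes lower. In ZJDC 17 rose and 13 fell, or 50.8% against 54.7% of all, with a median of 0.116 beside 0.014. Without OMVSSDC replicate 3, 27 were higher in ZJDC, with 35.2% of all genes higher. Both comparisons called 15 of these genes higher and 12 lower, and none in opposite directions. In the fit of all 9 libraries the shares lay near those of the transcriptome, and the counts by role below stand beside 33.4% of all tested genes higher and 30.2% lower in OMVSSDC, and 27.6% higher and 27.1% lower in ZJDC.

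Among the genes of membrane bending and scission, 5 of 9 tested rose and 1 fell in OMVSSDC, and 6 rose and 1 fell in ZJDC. That is 66.7% called in OMVSSDC and 77.8% in ZJDC, against 63.6% and 54.7% of all tested genes, in a group of few genes. Dnm1, the dynamin best known from neurons, was at 7.68 ± 0.924 CPM in OMVSSDC and 6.99 ± 0.479 CPM in ZJDC, against 0.961 ± 0.159 CPM in PBSDC (SD, n = 3 each). Its log2 fold change was 2.98 in OMVSSDC (SE 0.185, adjusted p = 5.27e-07, edgeR) and 2.84 in ZJDC (adjusted p = 1.20e-06, edgeR). Per length it averaged 1.53 FPKM in OMVSSDC, 1.33 in ZJDC and 0.175 in PBSDC, far below Dnm2. Snx33, a sorting nexin with a membrane-bending BAR domain, rose to 28.6 ± 2.01 CPM in OMVSSDC and 22.2 ± 0.791 CPM in ZJDC, against 8.81 ± 0.972 CPM in PBSDC. The gene that fell was Sh3kbp1, which encodes the adaptor CIN85 (-1.18 in OMVSSDC and -0.91 in ZJDC); it was named after its value was seen.

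Of the pioneer proteins and adaptors, 8 of 23 rose and 4 fell in OMVSSDC, and 4 rose and 3 fell in ZJDC. The 52.2% called in OMVSSDC and 30.4% in ZJDC lie below the 63.6% and 54.7% of all tested genes. Itsn1, a scaffold that joins Eps15 and dynamin at the pit, fell to 41.9 ± 7.24 CPM in OMVSSDC and 53.6 ± 3.33 CPM in ZJDC, against 151 ± 7.42 CPM in PBSDC. Its log2 fold change was -1.85 in OMVSSDC (SE 0.113, adjusted p = 4.97e-07, edgeR) and -1.50 in ZJDC (adjusted p = 2.77e-06, edgeR). Reps2, an Eps15-like partner of Ral signalling, rose to 9.09 ± 0.559 CPM in OMVSSDC and 7.79 ± 1.36 CPM in ZJDC, against 1.17 ± 0.538 CPM in PBSDC. Beta-arrestin genes, whose proteins link activated receptors to AP-2, were lower: Arrb2 fell by 0.59 in OMVSSDC (adjusted p = 2.22e-05, edgeR) and Arrb1 by 0.66 in ZJDC (adjusted p = 6.75e-05, edgeR). Both genes were called lower in both groups. Arrb1 averaged 79.5 CPM in OMVSSDC, against 132 in PBSDC, and Arrb2 averaged 557 CPM in ZJDC, against 744 in PBSDC. These averages were named after they were seen.

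Among kinases, lipid enzymes and uncoating factors, 4 of 11 rose and 4 fell in OMVSSDC, and 4 rose and 2 fell in ZJDC, or 72.7% called in OMVSSDC and 54.5% in ZJDC, against 63.6% and 54.7% of all tested genes. Hspa8, the chaperone that strips clathrin from vesicles, fell to 894 ± 138 CPM in OMVSSDC, against 1895 ± 60.4 CPM in PBSDC (-1.08, SE 0.0990, adjusted p = 7.08e-06, edgeR). It was also lower in OMVSSDC than in ZJDC, which averaged 1446 ± 76.7 CPM (-0.69, adjusted p = 0.0155, edgeR). That call was lost in 6 of the 9 fits that leave out a library. Over these 9 fits the log2 fold change stayed between -0.83 and -0.63, with adjusted p of 1.34e-14 to 0.143 (edgeR). With OMVSSDC replicate 3 as the lone library of its group, the log2 fold change was -0.47. Hspa8 has near-identical pseudogene copies, between which counting may split reads. Inpp5d, the phosphatase SHIP1 that acts on PIP3, fell by 0.75 in OMVSSDC (adjusted p = 5.23e-06, edgeR) and by 0.56 in ZJDC (adjusted p = 5.02e-05, edgeR).

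Of the clathrin-independent and macropinocytosis genes, 2 of 12 rose and 7 fell in OMVSSDC, and 3 rose and 4 fell in ZJDC, or 75% called in OMVSSDC and 58.3% in ZJDC, against 63.6% and 54.7% of all tested genes. Flot1, which encodes flotillin-1 of membrane microdomains, rose to 60.3 ± 2.45 CPM in OMVSSDC and 65.2 ± 3.74 CPM in ZJDC, against 26.0 ± 1.24 CPM in PBSDC. Its log2 fold change was 1.21 in OMVSSDC (SE 0.0754, adjusted p = 5.23e-07, edgeR) and 1.33 in ZJDC (adjusted p = 4.68e-07, edgeR). Flot2, its partner, was higher in both (0.41 in OMVSSDC and 0.57 in ZJDC). The small GTPase genes Rac1 (-0.67) and Cdc42 (-0.42), which drive membrane ruffling, fell in OMVSSDC, and Rac1 (-0.29) and Cdc42 (-0.26) fell in ZJDC. Flot2, Rac1 and Cdc42 were named after their values were seen.

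**Figure D4:**
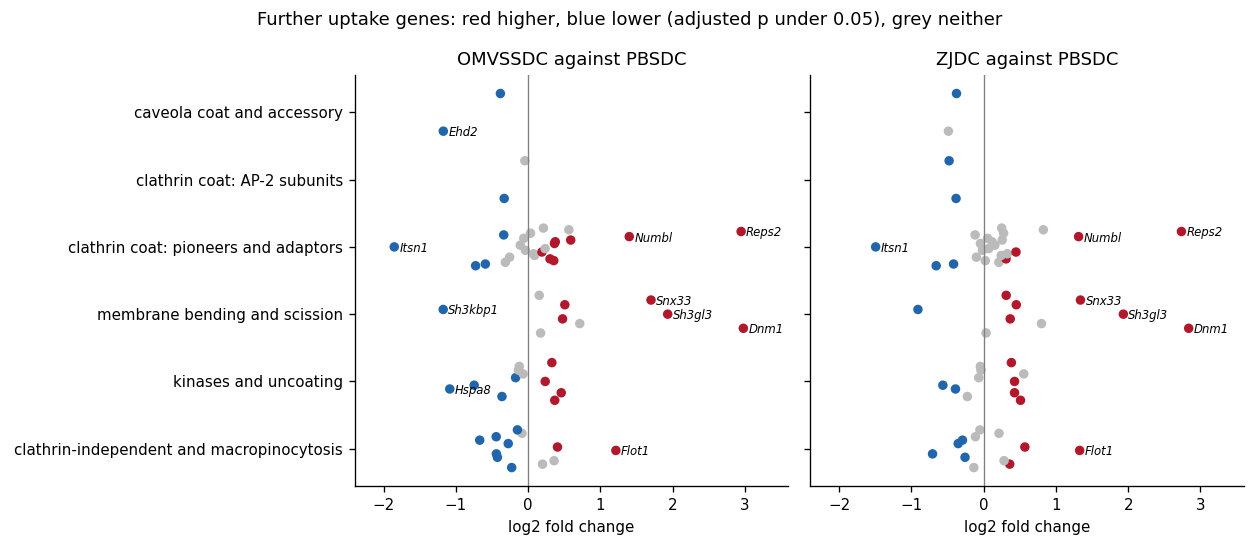
Log2 fold changes (horizontal axes) of the 59 tested further uptake genes, grouped by role down the page, for OMVSSDC against PBSDC (left) and ZJDC against PBSDC (right); red marks genes higher and blue genes lower at an adjusted p under 0.05, and grey the others. Dnm1, Reps2, Sh3gl3, Snx33, Numbl and Flot1 lie furthest to the right in both panels and Itsn1 furthest to the left.

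The genes whose pattern over the 9 libraries was most like that of Cltc were Lrrc8d, Arhgap21, Zmiz1, Stau1 and Mia3, with Pearson r of 0.983 to 0.995 on log2 CPM among 9623 genes, of which 98 exceeded 0.95. For Cav2 they were Aph1c, Cerk, Slc5a3, Kctd18 and Tk2 (r of 0.984 to 0.986, with 320 genes above 0.95), a search added after the values were seen. For Cav1, with at most 10 counts in a library, the nearest gene was Pip5k1c (r = 0.968), which at such counts is no finding. These r are descriptions over libraries that share 3 groups and are given with no test.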

How the data were processed

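RNA of 9 libraries was sequenced. Per the submitters' processing notes the authors used fastp 0.22.0, HISAT2 2.1.0 and HTSeq 0.9.1; the sources used here give neither the genome build nor the strand setting. The deposited table gives whole-number read counts per gene, without normalization by the authors. Its FPKM values, also made by the authors, matched counts divided by gene length and by library total to within 4.1e-06. No other per-sample column was left out (0). Of 21959 genes, 4916 had 0 counts throughout. Gene positions in the table equalled those of GENCODE M21 for 501 of 21851 matched genes, so the 2 were not mixed, and all 10 genes matched the RefSeq upstream windows (GRCm38.p6) by symbol.

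The test was run with edgeR 4.0.16 in R 4.3.3, using filterByExpr (minimum count 10, total 15), TMM, robust quasi-likelihood fit of all 9 libraries with group as the only factor (6 residual degrees of freedom), two-sided F-tests, and Benjamini-Hochberg adjustment over 11568 genes, with a threshold of 0.05. The SE is the fold change over the square root of F, and CPM are TMM-scaled. Library totals of 12784931 to 18388959 set the precision. Ratios used counts plus 0.5 and exact permutation tests. Alternatives were RLE, library size alone, no filter, a stricter filter (2 CPM in 3 libraries), DESeq2 1.42.0, voom of limma 3.58.1, a replicate block, only the 2 groups compared, removal of a length trend, each library left out, and the 7 libraries without OMVSSDC replicates 1 and 2, where the lone OMVSSDC library is assumed to vary like the other groups. The fit was tested on simulated data.

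The members and lists were chosen with earlier results of these data known. From the further uptake list, up to 4 genes per direction with the smallest adjusted p and a mean of at least 5 CPM were named, except that some items are not reported here; others are marked. The 5 nearest patterns were taken among genes with a mean of at least 5 CPM.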

Additional observations from a re-analysis of the deposited data

How the results depend on the processing

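Calls of Cav2, Dnm2, Clta and Cltb against PBSDC held under every alternative run. With scaling by library size alone, 12 further uptake genes were lower in OMVSSDC against PBSDC (19 otherwise), and the log2 fold changes of Eps15 (0.11), Ap2b1 (0.036), Cltc (0.073), Ap2a1 (0.13) and Ap2s1 (0.091) changed sign, as did Ap2m1 (0.064) in OMVSSDC against ZJDC. In ZJDC against PBSDC, 4 members were higher (2 otherwise) when scaled by library size only. All tested genes called higher then numbered 3631 of 11568 (3193 otherwise). Fitting just the ZJDC and PBSDC libraries also gave 4 members higher, with 27 further genes (17 otherwise). In that fit 4030 of all 11398 tested genes were higher. Cltc turned to -0.0023 with the length trend removed. Within the 7 libraries 5 members were lower in OMVSSDC against PBSDC (3 otherwise), Eps15 was at 0.28 and Cltc at 0.048; in OMVSSDC against ZJDC Cav2 (-0.063), Eps15 (0.045), Dnm2 (0.030), Ap2a1 (-0.099), Ap2a2 (-0.14) and Ap2s1 (-0.17) changed sign. In OMVSSDC against ZJDC the main fit called 1 of the 59 tested further genes higher and 1 lower, or 3.39%. Those higher were 0 with RLE, where 1.83% of all tested genes were called. They were also 0 when scaled by library size only, where 1.78% of all tested genes were called. With just the OMVSSDC and ZJDC libraries fitted, 0 were higher and 0 lower, and 0% of all tested genes passed. With DESeq2, 3 were higher and 9 lower. DESeq2 also called 2 members lower, and 9.29% of 17043 genes with any count. The main fit called 1.95% of its 11568 filtered genes, so these shares have unlike bases. The cause of these shifts was not tested.

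The replicate numbers did not pair the samples: deviations of same-numbered libraries correlated at -0.388 to 0.089, and 6 of 18 matched best with their own number. With the replicate block 0 further genes were called higher and 0 lower in OMVSSDC against ZJDC, where 0% of all genes passed; the members' counts did not move, and Ap2a1 was at 0.0015 in OMVSSDC against PBSDC. With the block the smallest exact p of a ratio is 0.25.

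Leaving out each library in turn, members called in OMVSSDC against PBSDC numbered 2 higher throughout and 3 to 6 lower, in ZJDC against PBSDC 2 to 4 higher and 3 lower, and in OMVSSDC against ZJDC 0 to 2 higher and 0 to 6 lower. Further genes numbered 15 to 21 higher and 15 to 29 lower in OMVSSDC against PBSDC, 16 to 27 and 11 to 18 in ZJDC against PBSDC, and 0 to 10 and 0 to 27 in OMVSSDC against ZJDC. The share of all tested genes called in the same fits was 55.8% to 74.9% in OMVSSDC against PBSDC. That share was 46.5% to 70.1% in ZJDC against PBSDC and 0% to 55.6% in OMVSSDC against ZJDC. In OMVSSDC against PBSDC, Eps15 ranged from -0.19 to 0.091, Ap2a1 from -0.080 to 0.10 and Ap2s1 from -0.18 to 0.18; in OMVSSDC against ZJDC, Ap2m1 ranged from -0.036 to 0.028 and Ap2a2 from -0.015 to 0.13. A pseudocount of 0 gives no Cav1 to Cav2 ratio for OMVSSDC, where 1 library has 0 counts; with 0.5 the log2 ratio differed from PBSDC by -3.51 in OMVSSDC and -1.33 in ZJDC, and with 2 by -2.57 in OMVSSDC and -1.19 in ZJDC (exact permutation p = 0.1 each); OMVSSDC against ZJDC was at -2.19 with 0.5 and -1.38 with 2. Depth limits Cav1 and the cavins, with at most 10 counts in a library.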
